A study of Homo sapiens with 12 samples.

Results

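The comparison described here asked how far 16 h of 10 nM dihydrotestosterone (DHT), the main androgen of the prostate, returned hormone-starved Bag-1L knockout (KO) cells to the expression state of full medium (FM). It held 4 of the 12 RNA-seq samples of the series, chosen by their titles: 2 replicates of Bag-1L KO cells in DHT and 2 of the same cells in FM. The cells are LNCaP, an established androgen-responsive line from a prostate carcinoma metastasis. FM was RPMI 1640 with 10% fetal bovine serum. The DHT samples had been kept for 72 h in the same medium with charcoal/dextran-treated serum, which removes steroids and other small lipophilic molecules, before DHT was added, and the study's methods name medium free of phenol red for starvation. The serum, the medium, the 72 h of starvation and the added DHT therefore all differed between the groups and cannot be told apart in this comparison. The starved KO cells given the vehicle ethanol (EtOH) for 16 h, 2 samples, served as the starting point, and the matching samples of the TALEN control line (Ctr), 2 in DHT and 2 in FM, were set beside the KO values. In the KO line a TALEN nuclease had removed the CTG start codon of Bag-1L, the longest protein made from the BAG1 gene, and left the start codons of the shorter Bag-1 proteins in place. The KO line is a single clone according to the study's methods, so the knockout and the clone cannot be told apart. The titles number the replicates and no source used here says whether they were separate cultures, so the tests measure the spread between these samples, which may be technical.

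Androgens such as DHT act on transcription, and raise or lower many genes of luminal prostate cells, among them the kallikreins that these cells secrete. LNCaP cells need both androgen and serum growth factors to proliferate, and charcoal treatment lowers both steroids and some other serum components. Bag-1L is a nuclear cochaperone that binds HSP70.

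The gene counts of the 4 libraries lay between 22474837 and 30354666, and those of all 12 between 20826843 and 30354666. Replicates differed by a median absolute log2 difference of 0.127 in KO DHT and 0.0765 in KO FM over 11374 genes with a mean normalised count of at least 100. The difference was 0.0828 in KO EtOH, 0.0837 in control FM and 0.172 in control DHT. It was largest, 0.238, in the control EtOH samples, which were used only in the joint fit of all 12 samples. All 10 luminal markers were detected, with a summed level of 6390 to 6490 CPM (gene counts scaled to a common library total) in DHT and 6230 to 6530 CPM in FM, against 3380 to 3410 CPM in EtOH. The summed markers of basal, endothelial, leukocyte and neuroendocrine cells stayed at or below 7.48 CPM in every KO library. Markers of fibroblasts and smooth muscle summed to 34.5 to 39.2 CPM in DHT, 35.2 to 36.8 CPM in EtOH and 21 to 23.1 CPM in FM. BAG1 reads do not check the knockout, because the deletion covers only the start of the long form. BAG1 had normalised counts of 1076 and 1114 in DHT and 1452 and 1576 in FM (log2 fold change -0.47, SE 0.18, adjusted p = 0.0367), a difference under the fold minimum, and counted 2199 and 2631 in control DHT and 2117 and 1968 in control FM.

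In KO cells, DHT after starvation left 36 of 39 G1/S genes and 37 of 38 G2/M genes below FM, restored 18 of 27 classical androgen-induced genes, and carried 33 genes past the FM level. Of 16521 genes tested between KO DHT and KO FM, 2162 (13.1%) passed an adjusted p of at most 0.05 and a fold change of at least 1.5 in DESeq2. Of all genes tested, 6.8% (1124) were higher in DHT and 6.28% (1038) were lower in DHT. The median absolute log2 fold change of the genes that passed was 0.92, and the median over all tested genes was 0.01.

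The 6 largest rises over FM were in CAMK2N1, GLYATL3, COL12A1, COL5A1, TMPRSS6 and COL16A1. CAMK2N1 (chr1:20808884-20812703, minus strand, GRCh37), an inhibitor of calcium/calmodulin-dependent kinase II, had normalised counts of 508.3 and 505.0 in DHT, 35.4 and 39.5 in FM and 2065 and 1874 in EtOH. DHT libraries thus lay far above both FM libraries and well below both EtOH libraries (log2 fold change 3.76, SE 0.21, adjusted p = 4.89e-69 against FM). GLYATL3 (chr6:49467636-49495791, plus strand), of the glycine N-acyltransferase family, had 337.2 and 282.9 in DHT, 27.0 and 19.7 in FM and 785.6 and 900.6 in EtOH (log2 fold change 3.72, SE 0.28, adjusted p = 2.24e-38). COL12A1 (chr6:75794042-75915983, minus strand), a chain of a fibril-associated collagen, had 362.2 and 267.9 in DHT, 38.2 and 34.0 in FM and 273.5 and 290.8 in EtOH (log2 fold change 3.12, SE 0.29, adjusted p = 6.53e-25). COL5A1 (chr9:137533649-137736689, plus strand), a chain of the fibril-forming collagen V, had 198.5 and 250.0 in DHT, 35.4 and 16.4 in FM and 229.5 and 240.9 in EtOH (log2 fold change 3.08, SE 0.30, adjusted p = 3.94e-22). The DHT and EtOH libraries overlapped for both collagens, and FM stood apart below. COL16A1 (chr1:32117864-32169920, minus strand), a further fibril-associated collagen, had 219.4 and 242.0 in DHT, 29.8 and 38.4 in FM and 435.2 and 358.6 in EtOH (log2 fold change 2.77, SE 0.26, adjusted p = 1.5e-24). TMPRSS6 (chr22:37461476-37505753, minus strand), a membrane serine protease that restrains hepcidin, had 173.5 and 207.2 in DHT, 26.1 and 18.6 in FM and 357.2 and 325.6 in EtOH (log2 fold change 3.07, SE 0.31, adjusted p = 3.87e-21). Fibroblast and smooth muscle markers, whose sums are given above, also stood higher in DHT and EtOH than in FM, with 2 of 5 tested markers higher and 1 lower, and their part in the collagen values was not tested.

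The 6 largest falls were in ADAM7, DHRS2, UGT2B28, ACADL, ALB and UGT2B15. UGT2B28 (chr4:70146193-70160768, plus strand), which joins glucuronic acid to steroids, had 181.5 and 188.2 in DHT, 980.3 and 1120.1 in FM and 21.5 and 21.6 in EtOH (log2 fold change -2.51, SE 0.17, adjusted p = 1.09e-44 against FM). UGT2B15 (chr4:69512315-69536370, minus strand), which inactivates DHT by the same reaction, had 110.5 and 121.5 in DHT, 583.9 and 600.6 in FM and 235.1 and 225.9 in EtOH (log2 fold change -2.35, SE 0.17, adjusted p = 2.53e-39). For UGT2B28, DHT lay between EtOH and FM, whereas for UGT2B15 it lay below both. These UGT2B genes are close copies in a cluster on chromosome 4. Reads without a unique alignment were tallied apart from the genes, at 16.8% and 17.2% of tallied reads in KO DHT and 15.9% and 16.5% in KO FM. Sequence that the copies share may therefore be undercounted, and the split among them is uncertain. ADAM7 (chr8:24298443-24384483, plus strand), an ADAM family member known from the epididymis, had 306.6 and 263.0 in DHT, 1726 and 1909 in FM and 80.3 and 81.9 in EtOH (log2 fold change -2.67, SE 0.14, adjusted p = 7.28e-76). DHRS2 (chr14:24099324-24114848, plus strand), a short-chain dehydrogenase, had 403.4 and 308.8 in DHT, 2221 and 2174 in FM and 331.2 and 381.1 in EtOH (log2 fold change -2.62, SE 0.15, adjusted p = 1.63e-67). DHT and EtOH libraries overlapped for DHRS2 and did not for ADAM7. ACADL (chr2:211051850-211090171, minus strand), a long-chain acyl-CoA dehydrogenase of fatty acid oxidation, had 37.9 and 32.9 in DHT and 198.7 and 196.2 in FM (log2 fold change -2.47, SE 0.28, adjusted p = 3.47e-17), and 0 and 0.9 in EtOH. ALB (chr4:74262831-74287199, plus strand), serum albumin, had 109.7 and 114.5 in DHT, 624.9 and 562.3 in FM and 263.4 and 273.9 in EtOH (log2 fold change -2.41, SE 0.17, adjusted p = 3.67e-42).

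**Figure D1:**
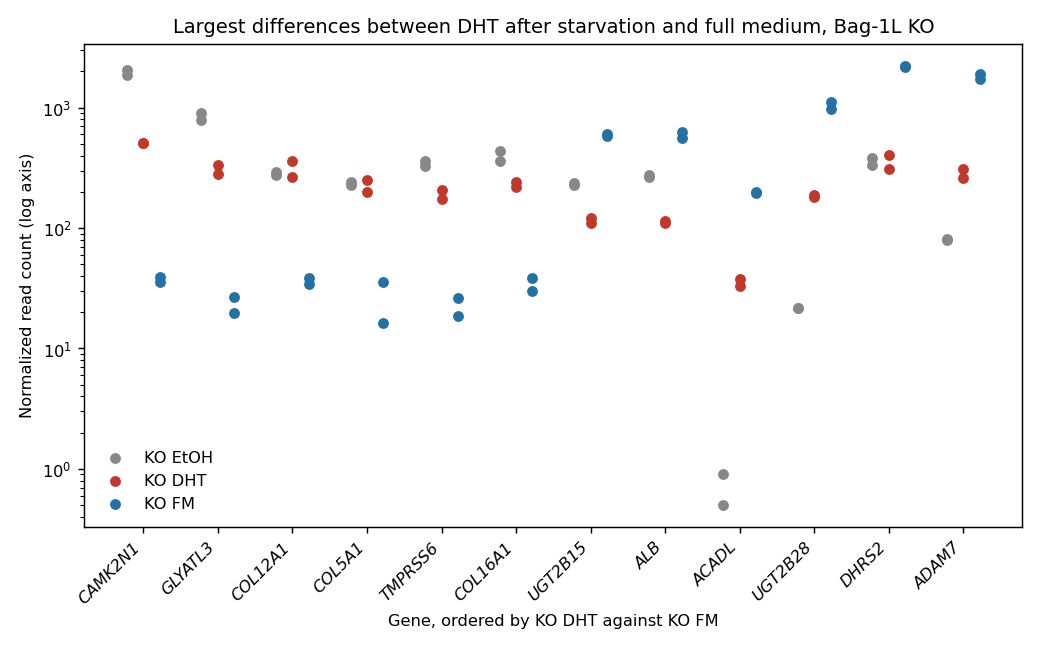
Normalised read counts (log axis) of the 6 genes with the largest rises and the 6 with the largest falls between KO DHT and KO FM, one point per sample, with the sample at 0 drawn at 0.5. The CAMK2N1 points of DHT (505.0 and 508.3) sit between those of FM and EtOH, and the COL5A1 points of DHT and EtOH overlap.

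To place DHT between starvation and full medium, genes were classed by 3 comparisons that share the KO samples: DHT against FM, DHT against EtOH (1346 genes passed, 7.68% of 17535) and FM against EtOH (3578 genes passed, 19.3% of 18549). The FM samples enter both the comparison that chose these 3578 genes and the comparison of DHT with FM, so a deviation of an FM mean moves both. Of the 3578 genes, 669 (18.7%) were restored: DHT against EtOH passed toward FM and DHT against FM did not pass. A missed threshold does not show equality, and for 314 of the 669 (46.9%) the 95% interval of the DHT to FM difference lay within 1.5-fold. DHT stopped short of FM for 1614 genes (45.1%). Among these, 1359 (38.0%) did not pass against EtOH, 250 (6.99%) passed toward FM, and 5 (0.14%) passed away from FM. DHT went beyond FM for 33 genes (0.922%), 32 of them genes that FM raised over EtOH. The remaining 1262 (35.3%) passed neither DHT comparison and stayed unresolved. A further 515 genes passed between DHT and FM without passing between FM and EtOH, of which 121 passed between DHT and EtOH and 394 did not.

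**Figure D2:**
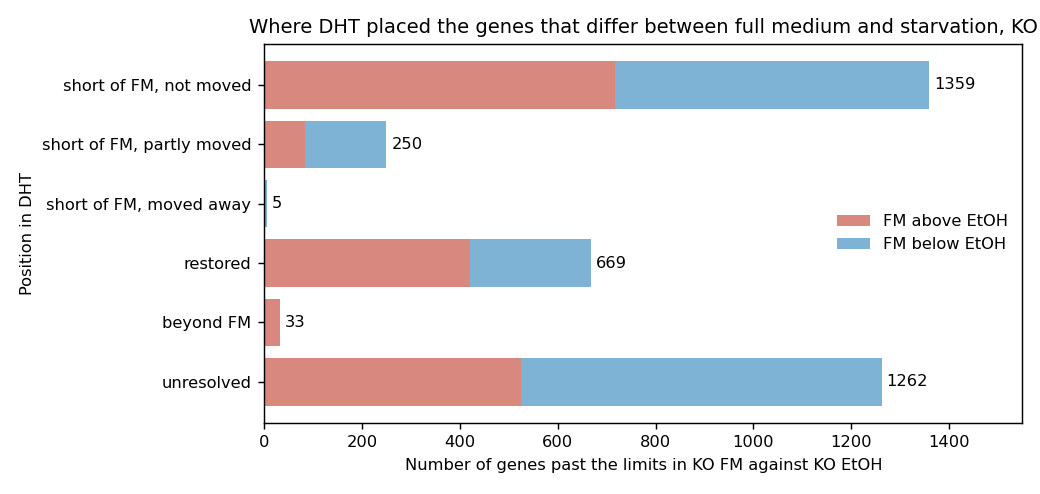
Number of genes in each position of KO DHT relative to KO FM and KO EtOH, among the 3578 genes past the limits between KO FM and KO EtOH, split by whether FM was above (red) or below (blue) EtOH. The longest bar is the 1359 genes that fell short of FM and did not pass against EtOH; 669 were restored and 33 went beyond FM.

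The restored genes with the largest FM effect had low counts in starvation and high counts in both other conditions. SLC38A4 (chr12:47158544-47226191, minus strand), an amino acid transporter, had 305.8 and 300.8 in DHT, 372.1 and 361.7 in FM and 2.3 and 2.8 in EtOH (log2 fold change -0.27, SE 0.22, adjusted p = 0.408 against FM). SLC2A3 (chr12:8071826-8171603, minus strand), the glucose transporter GLUT3, had 202.5 and 189.2 in DHT, 180.0 and 228.0 in FM and 9.0 and 10.4 in EtOH (log2 fold change -0.05, SE 0.21, adjusted p = 0.897). For SLC2A3 the DHT and FM libraries overlapped. CHRNA2, a nicotinic acetylcholine receptor subunit, had 1532 and 1700.2 in DHT, 2203 and 2342 in FM and 61.0 and 52.7 in EtOH. It was below FM (log2 fold change -0.49, SE 0.14, adjusted p = 0.00219) and counted as restored only because the difference was under the fold minimum. CCDC141 had 330.0 and 312.8 in DHT, 402.9 and 402.2 in FM and 9.0 and 10.4 in EtOH (log2 fold change -0.32, SE 0.16, adjusted p = 0.145).

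For the 250 partly moved genes the median FM effect was 2.31 on the log2 scale, the median move from EtOH toward FM was 1.07, and the median distance left to FM was 1.12. PGC and TRGC1 had large moves, while TMPRSS6 and COL16A1, given above, moved from EtOH by -0.84 and -0.78 of FM effects of -3.92 and -3.55. PGC, which encodes the pepsin precursor progastricsin, had 308.2 and 308.8 in DHT, 794.7 and 811.1 in FM and 19.2 and 17.9 in EtOH (log2 fold change -1.38, SE 0.16, adjusted p = 1.04e-16). TRGC1, a T cell receptor gamma constant segment whose locus prostate cells are known to transcribe, had 333.2 and 304.8 in DHT, 1534 and 1486 in FM and 11.3 and 17.9 in EtOH (log2 fold change -2.24, SE 0.18, adjusted p = 6.15e-33). Both genes rose over EtOH and remained below FM in each library. Among genes that did not pass against EtOH, FBXO2, an F-box protein that marks glycoproteins for degradation, had 667.2 and 828.7 in DHT, 97.0 and 137.0 in FM and 1016 and 938.3 in EtOH (log2 fold change 2.68, SE 0.23, adjusted p = 1.94e-28). TMEM59L had 204.1 and 237.1 in DHT, 37.3 and 47.1 in FM and 300.7 and 315.3 in EtOH (log2 fold change 2.39, SE 0.25, adjusted p = 2.07e-19). The 5 genes that DHT moved away from FM were ALB, UGT2B15, UGT2B17, APOF and MIRLET7BHG. APOF was below the mean count set for naming and was picked out after its values were seen. MIRLET7BHG, the host transcript of a let-7 cluster, was the sole one of the 5 above FM, with 183.1 and 190.2 in DHT, 80.2 and 77.8 in FM and 108.5 and 135.5 in EtOH (log2 fold change 1.24, SE 0.22, adjusted p = 3.4e-07).

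The overshoot genes included several known to respond to steroid hormones. SGK1 (chr6:134490386-134639250, minus strand), a kinase induced by steroid hormones, had 1194 and 1072 in DHT, 297.5 and 320.0 in FM and 54.3 and 74.3 in EtOH (log2 fold change 1.88, SE 0.15, adjusted p = 3.9e-32 against FM). PHLDB2, a cortical anchor of microtubules, had 465.5 and 441.2 in DHT, 216.4 and 207.1 in FM and 43.0 and 44.2 in EtOH (log2 fold change 1.10, SE 0.16, adjusted p = 8.09e-11). For both genes the 3 groups were separate, with DHT at the top. NDRG1, a gene known to be induced by stress and androgen, had 36980.1 and 38110.1 in DHT, 22238 and 25236 in FM and 3185 and 3234 in EtOH (log2 fold change 0.66, SE 0.10, adjusted p = 6.06e-10), and fell under the fold minimum at 0.573 without KO FM replicate 1. TG, thyroglobulin, had 310.6 and 252.0 in DHT, 184.7 and 187.4 in FM and 15.8 and 9.4 in EtOH (log2 fold change 0.60, SE 0.22, adjusted p = 0.0327). The call for TG was lost whichever of the 4 libraries was left out, with adjusted p from 0.0597 to 0.366. ODC1, the first enzyme of polyamine synthesis, had 153830.3 and 150490.0 in DHT, 55034 and 59059 in FM and 23132 and 21602 in EtOH (log2 fold change 1.42, SE 0.14, adjusted p = 1.31e-21). JAG1, a Notch ligand, had 3117 and 3046 in DHT, 1377 and 1368 in FM and 749.4 and 713.3 in EtOH (log2 fold change 1.17, SE 0.12, adjusted p = 6.82e-19).

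Cell division genes stayed below FM. Of 39 genes of G1/S and DNA replication tested, 36 were lower in DHT than in FM and 0 were higher, with a median log2 fold change of -1.25, against 6.28% of all genes lower. Of 38 genes of G2/M and mitosis, 37 were lower and 0 were higher, with a median of -1.37. The same lists had medians of 0.15 and -0.15 in DHT against EtOH, where 2 of 39 and 1 of 38 passed, and of 1.41 and 1.21 in FM against EtOH. By the classes, 34 of the G1/S genes and 37 of the G2/M genes fell short of FM without passing against EtOH. In bulk RNA, fewer dividing cells and less RNA per dividing cell cannot be told apart. E2F2, a transcription factor of the G1/S step, had 104.9 and 104.6 in DHT, 387.1 and 414.3 in FM and 90.4 and 90.3 in EtOH (log2 fold change -1.94, SE 0.19, adjusted p = 2.54e-21). CDC45, a component of the replicative helicase, had 354.2 and 327.7 in DHT, 1221 and 1279 in FM and 264.5 and 297.4 in EtOH (log2 fold change -1.87, SE 0.15, adjusted p = 1.89e-32). DHT lay slightly above EtOH in both without passing, and FM stood far above. CCNA2, cyclin A2, had 536.5 and 475.1 in DHT, 1873 and 1757 in FM and 540.3 and 605.1 in EtOH (log2 fold change -1.84, SE 0.12, adjusted p = 4.08e-47). HMMR, a spindle and hyaluronan-binding protein, had 781.8 and 654.4 in DHT, 2438 and 2378 in FM and 703.1 and 780.2 in EtOH (log2 fold change -1.74, SE 0.13, adjusted p = 2.59e-41). For both, the DHT and EtOH values differed little beside their distance from FM. The exceptions were CENPN, a centromere protein gene that is also androgen-induced, which was restored, and POLE, CCND3 and CCND1, which did not pass. CDC25A and CDC6, which open DNA replication, rose over EtOH and stayed below FM, at log2 fold changes of -1.33 and -1.18 against FM.

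Because these genes moved together, their promoters were searched for the elements that E2F and DREAM complexes are known to read. RefSeq promoters of 300 bases, from 250 before to 50 after the start on GRCh38.p14, a later build than the GRCh37 coordinates given for genes here, were searched on both strands. An E2F element, spelled TTTGGCGC, TTTCGCGC or TTCCCGCC, was present in 18 of 33 G1/S promoters (54.5%), in 5 of 32 G2/M promoters (15.6%) and in 4.3% of all 27305 promoters. A CHR element, TTTGAA, was present in 22 of 32 G2/M promoters (68.8%), in 1 of 33 G1/S promoters (3.03%) and in 15.4% of all promoters. The NF-Y box CCAAT was present in 75.0% of G2/M promoters and 35.7% of all. A match describes the letters and not binding. None of these elements contains another. The windows below show the E2F element of E2F2, GINS1 (a helicase subunit gene) and E2F1, and the CHR element of HMMR, NDC80 (a kinetochore gene) and MAD2L1 (a spindle checkpoint gene), in capitals, read along the gene's strand. They lie at chr1:23531248-23531295 (minus), chr20:25407658-25407705 (plus), chr20:33686378-33686425 (minus), chr5:163460584-163460635 (plus), chr18:2571534-2571579 (plus) and chr4:120066799-120066844 (minus). The windows were picked from list members that passed and held the element, taking the largest absolute fold changes. All 6 genes were lower in DHT than in FM, by log2 fold changes of -1.94, -1.55, -1.49, -1.74, -1.66 and -1.61. These values were part of the choice and do not link the elements to the change.
E2F2: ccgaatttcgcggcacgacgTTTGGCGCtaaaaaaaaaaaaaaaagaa
GINS1: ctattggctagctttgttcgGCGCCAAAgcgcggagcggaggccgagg
E2F1: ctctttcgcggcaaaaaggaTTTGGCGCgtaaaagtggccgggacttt
HMMR: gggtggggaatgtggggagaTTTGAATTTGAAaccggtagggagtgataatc
NDC80: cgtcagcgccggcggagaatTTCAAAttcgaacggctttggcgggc
MAD2L1: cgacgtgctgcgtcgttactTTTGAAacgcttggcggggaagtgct

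Inhibitors of the cell cycle and genes of quiescence stood on the opposite side of FM, with 8 of 17 higher than FM and 1 lower (median 0.53). Against EtOH, 0 of the 17 rose in DHT and 4 fell (median -0.08). In FM 3 were higher than in EtOH and 8 lower (median -0.39), so these genes were not raised by DHT. CCNG2, an atypical cyclin of resting cells, differed by 1.09 on the log2 scale and FOXO3, a transcription factor that growth factor signalling holds out of the nucleus, by 0.83. SESN3, a FOXO-induced restraint on mTORC1, had 11879 and 9926 in DHT, 4471 and 3949 in FM and a mean of 20436 in EtOH (log2 fold change 1.37, SE 0.16, adjusted p = 1.76e-15). CDKN2C was the exception, at -1.16. The histone and ribosome biogenesis lists held calls near the 13.1% of all genes. Among replication-dependent histone genes 1 of 10 passed, lower (median -0.32). Among ribosome biogenesis and MYC target genes 1 of 26 was higher and 3 were lower (median -0.30), and MYC itself had 7114 and 7896 in DHT and 6695 and 6442 in FM (log2 fold change 0.19, SE 0.10, adjusted p = 0.167). Among the 50 cytosolic ribosomal protein genes 0 passed in DESeq2 (median 0.15), with 8 at an unadjusted p under 0.05 and 0 in edgeR.

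**Figure D3:**
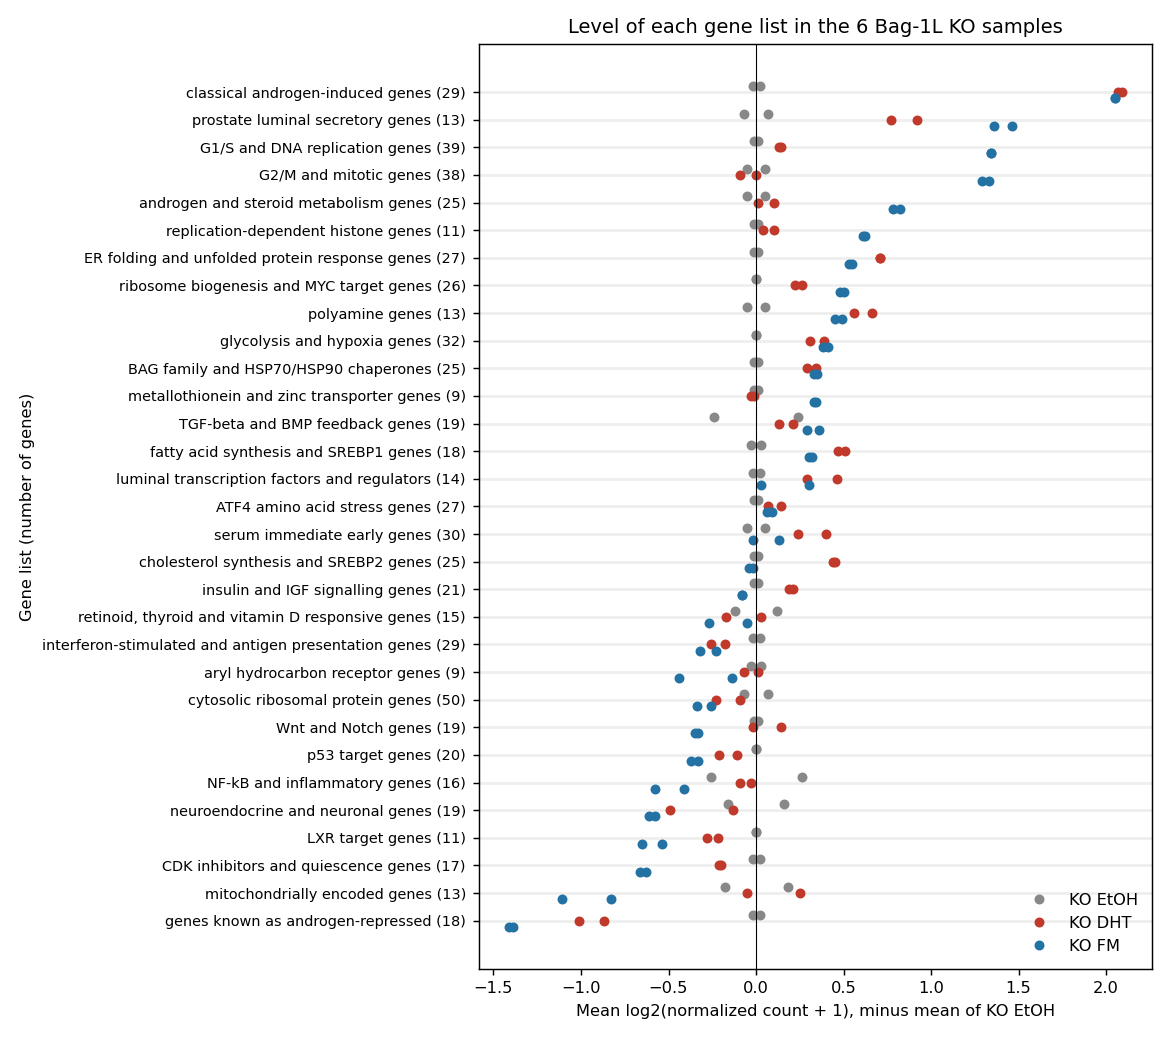
Mean level of each gene list in the 6 KO samples, as the mean log2(normalised count + 1) over the list minus the mean of the EtOH samples, one point per sample. The G1/S list stands at 0.13 and 0.14 in DHT and at 1.34 in both FM samples, while the classical androgen-induced list stands at 2.07 and 2.09 in DHT and 2.05 in both FM samples.

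The classical androgen-induced genes were centred on the FM level. Of 27 tested, 6 were higher than FM and 2 were lower, against 6.8% and 6.28% of all genes. Their median log2 fold change was 0.00, and 25 of 27 rose over EtOH in DHT. By the classes, 18 were restored, 3 partly moved and 3 beyond FM. KLK3 (prostate-specific antigen) had 18405 and 17932 in DHT, 20128 and 23182 in FM and a mean of 7697 in EtOH (log2 fold change -0.25, SE 0.13, adjusted p = 0.156). TMPRSS2, a membrane protease, had 5724 and 5075 in DHT, 6267 and 7051 in FM and a mean of 830.2 in EtOH (log2 fold change -0.30, SE 0.11, adjusted p = 0.0336), under the fold minimum. FKBP5, an immunophilin that binds HSP90, had 23628 and 22488 in DHT and 17689.7 and 18174 in FM, a difference of 0.36 that was under the fold minimum. These genes lay within 1.5-fold of FM, with DHT below FM in both libraries for KLK3 and TMPRSS2 and above it for FKBP5. CAMKK2, a kinase upstream of AMPK, was higher than FM, with 11452 and 11530.0 in DHT and 5656 and 5501 in FM (log2 fold change 1.04, SE 0.10, adjusted p = 1.65e-22). PLPP1, a lipid phosphatase, had 10108 and 9465 in DHT and 4640.2 and 4727 in FM (log2 fold change 1.06, SE 0.11, adjusted p = 5.13e-20), and KLK4, a kallikrein, differed by 0.88. The lower ones were MAF, a transcription factor, at -0.72, and HERC3, a ubiquitin ligase, at -0.67. Of the list of prostate luminal secretory genes, which shares members with this one, 1 of 12 was higher and 2 were lower. AZGP1, a secreted zinc-binding glycoprotein, was among the lower ones, with 55.7 and 54.8 in DHT and 210.8 and 249.9 in FM (log2 fold change -2.06, SE 0.24, adjusted p = 9.69e-16). ACP3, prostatic acid phosphatase, sits in both lists but was lower in DHT and in FM than in EtOH, with 908.4 and 753.0, 485.0 and 400.0 and 2298 and 2236.

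Genes known as androgen-repressed were divided among the classes. Some of them entered the list because earlier results of these data showed them, so their direction is not independent evidence. Of 18 tested, 7 were higher than FM and 3 were lower (median 0.78), against 6.8% and 6.28% of all genes. In DHT 13 of the 18 fell below EtOH and 3 rose above it, against the name of the list. In FM 11 were lower than in EtOH and 6 higher, and the classes do not tell these directions apart. By the classes, 7 were restored, 6 partly moved, 1 short of FM without passing against EtOH, 2 moved away and 1 beyond FM. ACKR3, a scavenging chemokine receptor, had 3331 and 3509 in DHT, 649.2 and 600.6 in FM and 8548 and 8044 in EtOH (log2 fold change 2.45, SE 0.11, adjusted p = 1.99e-111). PLPPR1, a phosphatase-related membrane protein of neurons, had 188.0 and 228.1 in DHT, 44.8 and 40.6 in FM and 1188 and 1237 in EtOH (log2 fold change 2.28, SE 0.23, adjusted p = 2.17e-20). In both, DHT took the gene down from EtOH without reaching FM. BCHE, butyrylcholinesterase, and DDC, which makes dopamine and serotonin, differed from FM by 1.28 and 0.94. The 3 lower members were UGT2B15, UGT2B17 and the peptidase DPP4. In the neuroendocrine and neuronal list 5 of 10 tested genes were higher and 0 lower (median 0.61), among them the glycolytic enzyme of neurons ENO2, with 278.3 and 301.8 in DHT and 74.6 and 72.3 in FM (log2 fold change 1.98, SE 0.21, adjusted p = 2.5e-19), and SYT4, a vesicle protein, at 1.06. The cell type markers of neuroendocrine cells stayed at 2.49 to 2.80 CPM in these 4 libraries.

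Of 24 cholesterol synthesis genes tested, 13 were higher in DHT than in FM and 0 were lower (median 0.60). Over all genes 6.8% were higher and 6.28% lower. Against EtOH, 8 of 25 rose in DHT (median 0.44), while in FM 2 were higher and 2 lower (median -0.01, from -1.28 to 1.54). MVD, an enzyme of the mevalonate pathway, had 1793 and 2160.4 in DHT, 902.9 and 1024 in FM and 1172 and 1384 in EtOH (log2 fold change 1.04, SE 0.21, adjusted p = 1.89e-05). LSS, lanosterol synthase, had 5614 and 6396 in DHT, 3097 and 3182 in FM and 4415 and 4586 in EtOH (log2 fold change 0.94, SE 0.12, adjusted p = 5.06e-14). DHT lay above both FM libraries in both genes. SREBF2, which encodes the transcription factor of this pathway, had 9009 and 9839.8 in DHT and 6038 and 5458 in FM (log2 fold change 0.71, SE 0.13, adjusted p = 3.03e-07). The sterol element TCACCCCAC was present in 1 of 18 promoters of the list (5.56%) and in 0.425% of all promoters, and the NF-Y box in 15 of 18 (83.3%). The match, in capitals, lies in the SREBF2 promoter at chr22:41832952-41833000 on the plus strand (GRCh38.p14).
SREBF2: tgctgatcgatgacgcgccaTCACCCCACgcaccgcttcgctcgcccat

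Of 17 fatty acid synthesis genes, 3 were higher and 1 was lower. The list counts of this paragraph read against 6.8% higher and 6.28% lower over all genes (13.1% passed). FASN, fatty acid synthase, had 56539 and 57187 in DHT, 28172 and 27969 in FM and 21675 and 27925 in EtOH (log2 fold change 1.02, SE 0.14, adjusted p = 2.07e-11). ELOVL7, a fatty acid elongase, went the other way, with 5155 and 4725 in DHT and 8435 and 7933 in FM (log2 fold change -0.73, SE 0.10, adjusted p = 1.17e-10). Charcoal removes lipophilic ligands, so targets of other receptors were counted too. Of 11 LXR targets 1 was higher, the sterol exporter ABCG1 at 0.70, a call lost with any 1 of the 4 libraries left out (adjusted p from 0.132 to 0.249), and the list held 0 calls without KO FM replicate 2. Of 8 aryl hydrocarbon receptor genes and of 8 retinoid, thyroid and vitamin D responsive genes, 0 passed in DESeq2 (medians 0.17 and 0.20), with 2 and 3 at an unadjusted p under 0.05 and 0 of either list in edgeR. The aryl hydrocarbon element TTGCGTG was in 0 of 8 promoters of its list and in 1.15% of all. Of 19 steroid metabolism genes, 9 were lower and 1 was higher (median -0.66). Beside the UGT2B genes, the lower ones were SRD5A3, a polyprenol reductase, at -0.76, HSD17B6, which converts androstanediol, at -0.77, and STS, steroid sulfatase, at -0.66.

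Of 13 mitochondrially encoded protein genes 10 were higher and 0 lower (median 1.23), against 6.8% and 6.28% of all genes. Their median in DHT against EtOH was 0.06. MT-CO1, a cytochrome c oxidase subunit, had 183827 and 218674 in DHT and 91754 and 80423 in FM (log2 fold change 1.23, SE 0.16, adjusted p = 1.74e-12), and MT-ND2, a complex I subunit, differed by 1.49. Mitochondrial counts made up 4.1% and 4.8% of gene counts in KO DHT, 2.18% and 1.94% in KO FM and 4.12% and 4.76% in KO EtOH. MT-ND4L overlaps MT-ND4, and counts of that pair are uncertain.

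Among 14 feedback genes of TGF-beta and BMP, 6 were lower, 0 were higher and 8 did not pass (median -0.40, from -1.0 to 0.77). ID3, an inhibitor of basic helix-loop-helix factors, had 832.6 and 1023 in DHT and 1838 and 1869 in FM (log2 fold change -1.0, SE 0.14, adjusted p = 6.91e-12), and SMAD6, an inhibitory SMAD, differed by -0.95. Of 23 serum immediate early genes 7 were higher and 0 lower (median 0.36). FOSL2, an AP-1 subunit, had 1958 and 1928 in DHT, 694.9 and 659.8 in FM and 937.0 and 956.1 in EtOH (log2 fold change 1.52, SE 0.13, adjusted p = 1.58e-28), and NR4A1, an orphan nuclear receptor, differed by 0.97. Of 17 insulin and IGF genes 6 were higher and 1 lower, with IRS2, an insulin receptor substrate, at 0.82, IGFBP3, an IGF-binding protein, at 1.0, and the ligand IGF1 at -0.75. Of 17 Wnt and Notch genes 7 were higher and 2 lower, with the receptor NOTCH3 at 1.63 and TCF7, a Wnt transcription factor, at -1.42. Of 8 NF-kB genes 2 were higher, TNFAIP3, an inhibitor of NF-kB, at 1.5 and the subunit gene RELB at 1.89. These counts read against 6.8% higher and 6.28% lower over all genes.

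Of the tested members of each metabolic and stress list, 15.4% to 33.3% passed, against 13.1% of all genes (6.8% higher and 6.28% lower). Of 30 glycolysis and hypoxia genes 4 were higher and 2 lower. LDHA, lactate dehydrogenase A, had 13154 and 13153 in DHT, 33036 and 32699 in FM and 11536 and 11629 in EtOH (log2 fold change -1.32, SE 0.08, adjusted p = 2.69e-51), while VEGFA, an angiogenic factor, differed by 0.84. DHT left LDHA near its EtOH level. Of 9 metallothionein and zinc genes 2 were lower, MT2A with 494.6 and 589.6 in DHT and 2011 and 2006 in FM (log2 fold change -1.89, SE 0.21, adjusted p = 4.54e-17) and its close copy MT1X, and 1 higher, the zinc importer SLC39A10. Of 13 polyamine genes 2 were higher, ODC1 and PAOX, the latter lost with 3 of the 4 libraries left out singly (adjusted p from 0.104 to 0.195). Of 24 interferon and antigen presentation genes 2 were higher and 3 lower, with HLA-B at 0.95, and without KO FM replicate 1 the 5 calls fell to 2. Of 20 p53 targets 3 were higher and 1 lower, with the damage recognition gene DDB2 at -0.81. Among the higher ones, BBC3 did not pass in edgeR (log2 fold change 1.041, adjusted p = 0.053). Its log2 fold change ran from 0.74 to 1.322 with 1 library left out. Of 26 ATF4 stress genes 5 were higher and 2 lower (median -0.03), a count of 7 that fell to 4 without KO FM replicate 1 or KO DHT replicate 1. PSAT1, of serine synthesis, was lower with 4116 and 4096 in DHT and 6567 and 6294 in FM (log2 fold change -0.65, SE 0.09, adjusted p = 1.07e-11).

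Bag-1L works with chaperones of the HSP70 system. Of 25 BAG family, HSP70 and HSP90 chaperone genes 0 passed in DESeq2 (median -0.08), with 8 at an unadjusted p under 0.05 and 1 call in edgeR or without KO DHT replicate 1. HSPA8, the constitutive HSP70, had 106306 and 106726 in DHT and 95199 and 96379 in FM (log2 fold change 0.15, SE 0.08, adjusted p = 0.157), and HSP90AA1 had 77517 and 73084 and 75084 and 78286. Of 27 genes of ER folding and the unfolded protein response 2 were higher, DNAJB9 at 0.69 and HERPUD1 at 0.60, with a median of 0.08, and 11 were restored. Of 12 luminal transcription factors and related regulators 1 was higher (2 passed without KO FM replicate 2 or KO DHT replicate 1), the epithelial factor ELF3, with 1109 and 1282 in DHT and 557.8 and 503.1 in FM (log2 fold change 1.17, SE 0.12, adjusted p = 1.16e-19), and FOXA1, a pioneer factor that opens chromatin, had 12569 and 12559 in DHT and 10383 and 9686 in FM (log2 fold change 0.32, SE 0.10, adjusted p = 0.00589), under the fold minimum.

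**Figure D4:**
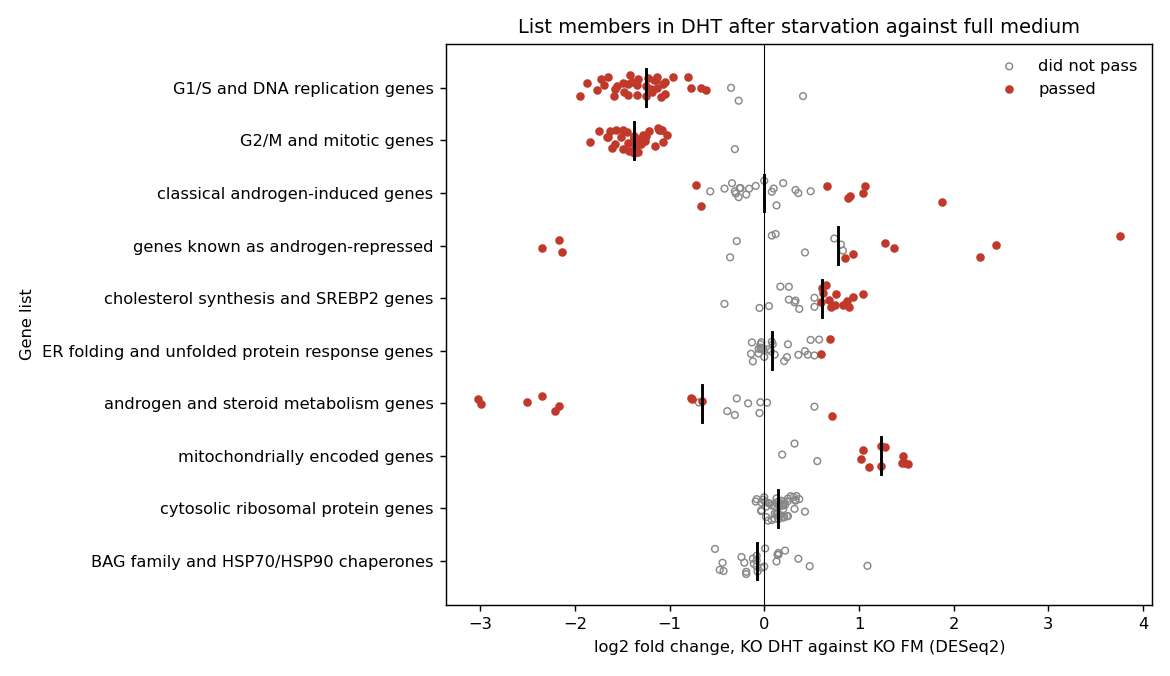
Log2 fold change of KO DHT against KO FM for each tested member of 10 gene lists. Filled points passed, open points did not, and the bar is the list median: -1.25 for G1/S, -1.37 for G2/M, 0.00 for classical androgen-induced and 0.60 for cholesterol synthesis genes.

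The same contrast in the control line shares no sample with the KO contrast. There 3137 of 16521 genes (19.0%) passed. The lines had 1343 genes in common that passed in the same direction, 661 higher and 682 lower in DHT, which is 62.1% of the KO genes and 42.8% of the control genes. Across the 16521 genes the fold changes of the lines had a Spearman correlation of 0.608, given as a description, since genes are not independent and all libraries share a cell line and protocol. The median of the G1/S list was -1.08 in control and -1.25 in KO, that of the G2/M list -1.08 and -1.37, that of the classical androgen-induced list 0.14 and 0.00, and that of the cholesterol list 0.68 and 0.60. The difference between the lines was tested as an interaction, and 296 of 12971 genes (2.28%) passed. Of all genes tested, 0.971% (126) were more positive in KO and 1.31% (170) more negative. The number that passed depended on the setting. It was 91 in edgeR and 934 with only the 8 samples compared, and ranged from 54 without KO FM replicate 2 to 773 without control DHT replicate 1.

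Genes more positive in KO included several on the androgen-repressed list. BCHE had 509.9 and 503.0 in KO DHT and 191.2 and 226.9 in KO FM, against 110.0 and 154.3 in control DHT and 215.3 and 212.0 in control FM (interaction log2 fold change 1.97, SE 0.24, adjusted p = 1.67e-12). COLCA1 had 1247 and 987.1 in KO DHT and 299.4 and 335.4 in KO FM, against 195.9 and 150.3 and 258.4 and 310.3 in control (interaction log2 fold change 2.54, SE 0.25, adjusted p = 2.74e-20). Both passed upward in KO and downward in control, as did 1 further gene, the diacylglycerol kinase DGKH, named after its values were seen. In EtOH, BCHE had 1269 and 1219 in KO and 716.6 and 639.6 in control. COLCA1 had 2397 and 2544 in KO EtOH and 474.9 and 399.9 in control EtOH. Of 17 androgen-repressed genes tested for the interaction 9 were more positive in KO and 0 more negative (median 0.70), and 5 to 9 were so across the alternatives. Some of this list was chosen with such differences known. Of 27 classical androgen-induced genes 1 was more positive in KO and 3 more negative (median -0.08). That was 14.8% of the list, against 2.28% of all genes. Of 27 ER folding and unfolded protein response genes 12 were more negative in KO and 0 more positive (median -0.57), and 16 of the 27 were higher in DHT than in FM in control against 2 in KO. Against EtOH, 16 of the 27 rose in KO DHT and 0 fell (median 0.69). DHT against EtOH in control was not tested here, so the interaction does not compare the responses to DHT. PDIA4, a disulfide isomerase, had 26422 and 28041 in KO DHT and 25975 and 25856 in KO FM, against 56269 and 56419 and 30677 and 28681 in control (interaction log2 fold change -0.85, SE 0.13, adjusted p = 4.61e-08). That count of 12 was 4 in edgeR and ranged from 2 without KO FM replicate 2 to 13 across the alternatives, with medians between -0.47 and -0.68. Of 19 immediate early genes 6 were more negative in KO, and 0 were without control FM replicate 2 or without KO DHT replicate 1. Of 26 ATF4 stress genes 6 were more negative, and again 0 without either of those libraries. Of the G2/M list 5 of 38 were more negative in KO, and 1 to 8 across the alternatives, and of the G1/S list 1 of 39.

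**Figure D5:**
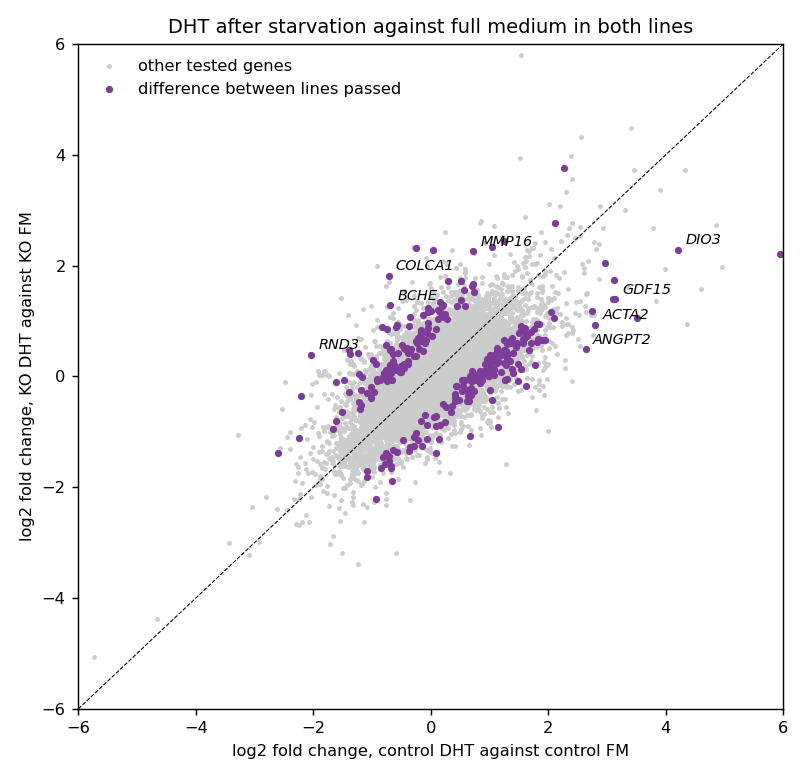
Log2 fold change of DHT against FM in control (x) and KO (y) for each tested gene; purple points passed the interaction test and 8 are named. COLCA1 and BCHE lie above 0 in KO and below 0 in control, and the dashed line marks equal values.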

How the data were processed

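Messenger RNA of LNCaP-derived lines was sequenced in 12 samples, 2 per line and condition. The authors aligned reads with TopHat2 2.0.11 after base calling with CASAVA 1.7 and deposited raw read counts per gene from HTSeq 0.5.3p3 (processing notes and methods); the strand setting and annotation release are not given in the sources used here, so overlapping and near-identical genes are uncertain. Of 63677 gene IDs, 55665 were matched to symbols. The 5 tally rows, 26.8% to 31.5% of tallied reads, were left out of library totals.

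Genes with at least 10 counts over all samples entered 1 DESeq2 1.42.0 fit (R 4.3.3) of all 12 samples with 1 coefficient per group, the study's tool and limits: Benjamini-Hochberg adjusted p of at most 0.05 and a fold change of at least 1.5, two-sided. The n is 2 per group, and each fold change carries its standard error (SE). Normalised counts are deposited counts divided by DESeq2 size factors. Counts of 25244 genes were simulated with known changes for KO DHT against KO FM, set only in genes with a mean of at least 50. DESeq2 recovered 78.6% of 98 genes changed 2-fold and 100% of 102 changed 4-fold, with 6 false calls. Recovery of genes with lower counts was not tested. The simulation changed KO DHT alone, kept each gene at a common mean in the other groups and drew every sample independently. In the data 2162 genes passed and the other groups also differed, so the simulated rates need not hold there. Alternatives were edgeR 4.0.16, TMM factors, other count filters, no fold minimum, a replicate block, only the compared samples, and leaving out each library.

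Members and gene lists were chosen with earlier results of these data known, and PLPPR1, GASK1B, AMIGO2, SLC38A4 and CAMK2N1 were listed for that reason. Genes named were BAG1, the 6 largest rises and 6 largest falls that passed with a mean of at least 100 and no overlap, the 4 largest interactions each way, 4 per class with the largest FM effect, and up to 4 passed members per list with a mean of at least 50 (otherwise its 2 highest). Named outside that rule, after their values were seen, were CCNG2, CDC25A, CDC6, E2F1, GINS1, MAD2L1, DDC, SREBF2, FKBP5, KLK3, KLK4, TMPRSS2, MAF, HERC3, HSD17B6, SRD5A3, STS, IGF1, TCF7, MYC, MT-CO1, CENPN, POLE, CCND1, CCND3, DPP4, PDIA4, APOF and DGKH. Some genes that the rule or lists hold are not reported here.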

Additional observations from a re-analysis of the deposited data

Results flagged for a closer look

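The DHT to FM difference itself differed between KO and control for 296 genes by the DESeq2 interaction test, a number that depends on the libraries used (54 to 773 with 1 library left out). Of these, 61 passed in the same direction in both lines, 3 passed in opposite directions, 66 passed in KO alone, 131 in control alone and 35 in neither.

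The 4 most positive interactions with a mean count of at least 100 were COLCA1 at 2.54 on the log2 scale, RND3 at 2.43, BCHE at 1.97 and MMP16 at 1.54. RND3, an atypical small GTPase, had normalised counts of 120.2 and 115.5 in KO DHT, 87.7 and 93.2 in KO FM, 85.8 and 103.9 in control DHT and 382.1 and 399.8 in control FM, so that control FM stood apart from the other 3 groups. MMP16, a membrane-type matrix metalloproteinase, had 444.5 and 399.4 in KO DHT, 96.1 and 80.0 in KO FM, 142.3 and 152.3 in control DHT and 102.7 and 76.8 in control FM, with KO DHT apart. All 4 stayed past the limits under their 14 alternatives, with a highest adjusted p of 0.0373 for MMP16.

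The 4 most negative were ANGPT2 at -2.16, DIO3 at -1.92, ACTA2 at -1.87 and GDF15 at -1.75. ANGPT2, a ligand of the TIE2 receptor, had 196.9 and 179.3 in KO DHT, 127.8 and 141.4 in KO FM, 184.8 and 163.4 in control DHT and 25.4 and 30.2 in control FM. ACTA2, smooth muscle actin, had 85.5 and 116.5 in KO DHT, 55.0 and 50.4 in KO FM, 709.7 and 689.0 in control DHT and 98.3 and 103.1 in control FM. GDF15, a stress-induced cytokine, had 292.9 and 428.3 in KO DHT, 139.0 and 135.9 in KO FM, 584.5 and 556.8 in control DHT and 78.4 and 52.5 in control FM. For ACTA2 and GDF15 control DHT was the highest group. For ANGPT2, GDF15 and DIO3 control FM was the lowest. DIO3, which inactivates thyroid hormone, had 143.6 and 234.1 in KO DHT, 33.6 and 43.8 in KO FM, 235.2 and 298.6 in control DHT and 9.9 and 18.5 in control FM. Its call was lost in edgeR (adjusted p = 0.0559) and without control FM replicate 1 (0.153), KO FM replicate 2 (0.17), control DHT replicate 2 (0.102) or KO DHT replicate 1 (0.108), over a range from 0.000466 to 0.17. The cause of these differences was not tested, and the knockout and the clone cannot be told apart.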

How the results depend on the processing

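Between KO DHT and KO FM, 2162 genes passed in the reported fit, 2496 in edgeR, and 1655 to 1841 with 1 of the 4 libraries left out. Without the fold minimum 4044 passed, with 2384 for DHT against EtOH, 5887 for FM against EtOH and 5640 for control DHT against FM. The classes then held 1110 restored, 491 partly moved, 2486 short of FM without passing against EtOH, 38 moved away and 122 beyond FM, with 283 and 624 outside the FM genes that did and did not pass against EtOH. With 1 library left out, partly moved genes numbered 161 to 197 and moved-away genes 3 to 4. The interaction is the least settled number: 296 genes in the reported fit, 91 in edgeR, 508 with the replicate block, 934 with only the 8 samples compared and 54 to 773 with 1 library left out. No label says that a replicate number marks a shared batch, and correlations of same-numbered deviations went both ways (15 pairs of groups, from -0.415 to 0.692). The 6 over 0.1 lay among KO FM, KO DHT, control EtOH and control DHT, with 0.288 for KO FM and KO DHT. These values do not settle whether the numbers pair the samples, and they were not used as pairs. With the replicate block 2123 genes passed between KO DHT and KO FM.

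Of 1479 alternative values for named genes, 1417 kept their direction and side of the limits, 50 lost the call, 6 gained it and 6 changed sign. The sign changes were in genes that did not pass: SLC2A3 ran from -0.218 to 0.124 over the left-out libraries, ARNT from -0.136 to 0.04 (0.002 without KO DHT replicate 2), HSP90AA1 from -0.067 to 0.016 (0.006 without KO FM replicate 2) and RPLP0 from -0.024 to 0.112. Among 217 alternative list counts 206 stayed within 1.5 times, and of 217 list medians 186 stayed within the spread between replicates and 31 moved beyond it. The cause of these changes was not tested. With 2 libraries per group, genes of low count have wide intervals, and a missed limit does not show equality.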
